A study of Mus musculus with 6 samples.

Results

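Actin isoforms and target genes of serum response factor (SRF) were followed as 10 genes, chosen by symbol from an RNA-Seq table of 24469 loci, namely *Actb*, *Actg1*, *Acta2*, *Tagln*, *Cnn1*, *Cnn2*, *Myl9*, *Vcl*, *Tpm1* and *Srf*. Where a symbol had several rows the one of highest mean was to be used, and each of the 10 symbols had 1 row. The genes were named with earlier results of these libraries known, so their levels and differences are a description and not independent support for a direction. The files give FPKM, the fragments assigned to a locus per kilobase of exon, scaled to the mapped reads of the library. Of the 10 genes, 9 had a mean of at least 1 FPKM over the libraries and were among the 10562 loci tested, and *Cnn1* was below that level.

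The 6 libraries came from MPCs, mouse podocytes of a conditionally immortalized line, differentiated for 10 days, and all of them were exposed to 25 mM glucose (HG) for 12 h after 12 h of starvation. The groups were HG alone, HG after 1 h of pretreatment with 100 ng/mL rFGF1WT, the wild-type growth factor, and HG after the same pretreatment with rFGF1ΔHBS, a mutant whose binding to heparan sulfate is weakened, with 2 libraries in each. A group without HG was not analysed here, so the response to glucose itself was not measured. MPCs are 1 cell line, and no source used here says whether the libraries of a group came from separate cultures, so p-values measure the spread between libraries, which may be technical. In bulk RNA, fewer cells that express a gene and less of its RNA per cell cannot be told apart.

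Actin exists as cytoplasmic isoforms, which every nucleated cell makes, and muscle isoforms, which contractile cells make in bulk. SRF is a transcription factor that binds a DNA element called the CArG box. Its cofactors of the MRTF family are held back by unpolymerized actin and enter the nucleus when actin polymerizes, so that the genes for actin and for actin-binding proteins are coupled to the state of the cytoskeleton, while cofactors of the TCF family link SRF to growth factor and ERK signaling. Podocytes depend on an actin-rich cytoskeleton to hold their foot processes around the glomerular capillaries.

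FPKM summed to between 179594 and 185168 per library. The depth is unknown, because FPKM hold no read totals, although the commonest ratio between low values of single-transcript loci gave depths of 0.974 to 1.01 relative to the first HG library. Of 14 podocyte markers, 7 had a mean of at least 1 FPKM. *Wt1*, a transcription factor of podocytes, did not exceed 0.0731 FPKM, so a defining marker of the labelled cell type was nearly absent. The summed FPKM of the podocyte markers was 245 to 251 in HG, 386 to 387 with rFGF1WT and 360 to 385 with rFGF1ΔHBS, and its members moved in both directions (described with the other markers).

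CArG boxes lie in the promoters of many SRF targets, and the promoters of these genes were searched for them. Promoters were read from RefSeq (GRCm38.p6) as 250 bases before and 50 bases after each annotated start, and 8 of the 10 genes had an entry. *Actb* and *Tagln* had none. At least 1 CArG box was present in 5 of the 8, *Actg1*, *Cnn2*, *Myl9*, *Vcl* and *Srf*, beside 1.63% of all 32851 promoters of that length and 1.52% of the 8168 tested genes with an entry. The genes were listed as actin isoforms and SRF targets, so a higher share than in all promoters is not independent support. The box is its own reverse complement in form, so 1 search covered both strands, and overlapping matches were kept. The stretches that hold the boxes are printed 5′ to 3′ along the strand of the gene, with the boxes in capitals, to show how far the boxes resemble each other.
Actg1: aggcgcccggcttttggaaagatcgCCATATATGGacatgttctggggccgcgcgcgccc
Cnn2: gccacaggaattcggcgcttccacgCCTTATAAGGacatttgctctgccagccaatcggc
Myl9: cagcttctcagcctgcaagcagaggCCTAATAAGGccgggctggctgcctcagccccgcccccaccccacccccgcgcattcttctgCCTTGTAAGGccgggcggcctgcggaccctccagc
Vcl: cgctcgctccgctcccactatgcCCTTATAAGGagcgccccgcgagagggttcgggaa
Srf: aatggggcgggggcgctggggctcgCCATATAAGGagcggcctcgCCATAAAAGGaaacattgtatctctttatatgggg
Acta2: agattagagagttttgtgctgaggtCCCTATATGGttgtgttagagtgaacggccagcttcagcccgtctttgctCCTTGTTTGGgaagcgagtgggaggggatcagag
The stretches lie at chr11:120348551-120348610 on the minus strand for *Actg1*, chr10:79988519-79988578 on the plus strand for *Cnn2*, chr2:156775278-156775399 on the plus strand for *Myl9*, chr14:20929148-20929205 on the plus strand for *Vcl*, chr17:46556190-46556269 on the minus strand for *Srf* and chr19:34255374-34255482 on the minus strand for *Acta2*. The box of *Actg1* began 90 bases before the start, that of *Cnn2* 56 bases, the first of *Myl9* 161 bases, that of *Vcl* 227 bases and those of *Srf* 82 and 62 bases. *Cnn2* and *Vcl* carried the same box letter for letter. *Acta2* held only CArG-like boxes, which began 84 and 34 bases before the start, and the second capitals of *Myl9* were also CArG-like. In this looser form, present in 8.50% of all promoters, 1 of the 6 core letters was not A or T. *Cnn1* and *Tpm1* held neither form in this window. A match describes letters in a window and says nothing of SRF binding in MPCs.

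**Figure D1:**
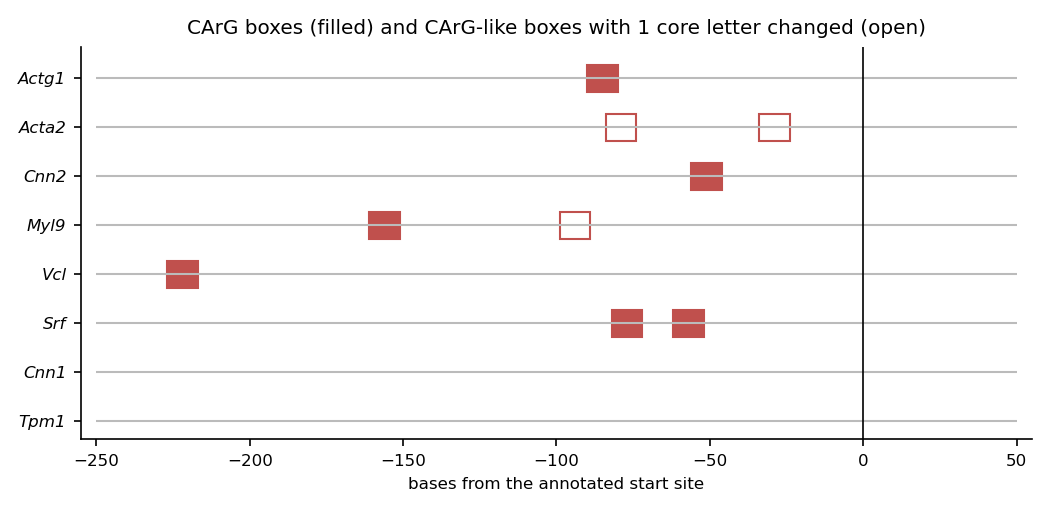
Position of CArG boxes (filled) and CArG-like boxes with 1 core letter changed (open) in the RefSeq promoters of 8 genes, in bases from the annotated start site (vertical line), each box 10 bases wide. The boxes of *Actg1*, *Cnn2*, *Myl9*, *Vcl* and *Srf* begin between 227 and 56 bases before the start, and *Cnn1* and *Tpm1* have none.

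*Actb* encodes β-actin, the main cytoplasmic actin, and lies at chr5:142903115-142906754 of GRCm38 on the minus strand, with 6 exons in its longest coding transcript. Its level was 857 and 1078 FPKM in HG, 1788 and 1699 FPKM with rFGF1WT, and 1507 and 1723 FPKM with rFGF1ΔHBS. All 4 libraries with a growth factor were above both HG libraries, and the HG libraries differed from each other more than the rFGF1WT libraries did. The fitted log2 fold change of FPKM + 1 was 0.86 with rFGF1WT (SE 0.14, adjusted p = 0.045 by limma) and 0.74 with rFGF1ΔHBS (SE 0.14, adjusted p = 0.0574), so 1 of the comparisons was on each side of the threshold of 0.05. The rFGF1WT call was lost without any 1 of the 6 libraries (adjusted p of 0.062 to 0.164), and under quantile normalization the difference was 0.51 (adjusted p = 0.309). *Actb* was among the 5 highest of all loci in every library and made up 0.472% and 0.600% of the summed FPKM in HG, 0.966% and 0.927% with rFGF1WT, and 0.837% and 0.946% with rFGF1ΔHBS.

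*Actg1* encodes γ-actin, the other cytoplasmic isoform (chr11:120345690-120348542 of GRCm38, minus strand, 6 exons), and its coding sequence was identical to that of *Actb* at 88.7% of positions. Its row also carries the name Gm23419. It stood at 375 and 385 FPKM in HG, 629 and 641 FPKM with rFGF1WT, and 590 and 646 FPKM with rFGF1ΔHBS. The HG libraries lay close together and well below the other 4. The log2 fold change was 0.74 with rFGF1WT (SE 0.056, adjusted p = 0.0131 by limma) and 0.70 with rFGF1ΔHBS (SE 0.056, adjusted p = 0.015), and *Actg1* therefore rose with both proteins. The rFGF1WT call was lost without either HG library or either rFGF1WT library (adjusted p of 0.062 to 0.0715), and the rFGF1ΔHBS call was lost without any library but the first rFGF1ΔHBS one (adjusted p of 0.0518 to 0.0773).

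A processed pseudogene, *Gm12715* (chr4:103563402-103564529 of GRCm38, plus strand), shared 90.2% of its 50-base words with *Actg1* transcripts and had its own row. Its level was 238 and 241 FPKM in HG, 376 and 401 FPKM with rFGF1WT, and 371 and 395 FPKM with rFGF1ΔHBS. Its log2 fold changes of 0.70 and 0.68 (adjusted p = 0.0138 and 0.0156 by limma) were close to those of *Actg1*. Fragments that match both rows cannot be told apart in FPKM, so the split between them is uncertain. The ratio of *Actb* to *Actg1* was 2.28 and 2.80 in HG, 2.84 and 2.65 with rFGF1WT, and 2.55 and 2.67 with rFGF1ΔHBS, and these ranges overlapped.

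*Acta2* encodes α-smooth muscle actin (chr19:34241090-34255590 of GRCm38, minus strand, 9 exons), the isoform of contractile cells and myofibroblasts. It measured 10.8 and 12.7 FPKM in HG, 17.7 and 16.8 FPKM with rFGF1WT, and 14.1 and 14.7 FPKM with rFGF1ΔHBS. The 3 groups did not overlap, with rFGF1ΔHBS between the others. No difference passed the threshold, at 0.51 with rFGF1WT (SE 0.091, adjusted p = 0.0559 by limma) and 0.27 with rFGF1ΔHBS (SE 0.091, adjusted p = 0.171). The rFGF1WT difference passed under a filter at a mean of 5 FPKM, median-ratio scaling or quantile normalization (adjusted p of 0.0438 to 0.0467). As a share of *Actb*, *Actg1* and *Acta2* together, *Acta2* was 0.872% and 0.863% in HG, 0.725% and 0.713% with rFGF1WT, and 0.668% and 0.616% with rFGF1ΔHBS, so it became a smaller part of the measured actin although its own level was not lower. *Acta1*, the skeletal muscle actin, and *Actg2*, the enteric smooth muscle actin, were at or below 0.0873 FPKM in every library.

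**Figure D2:**
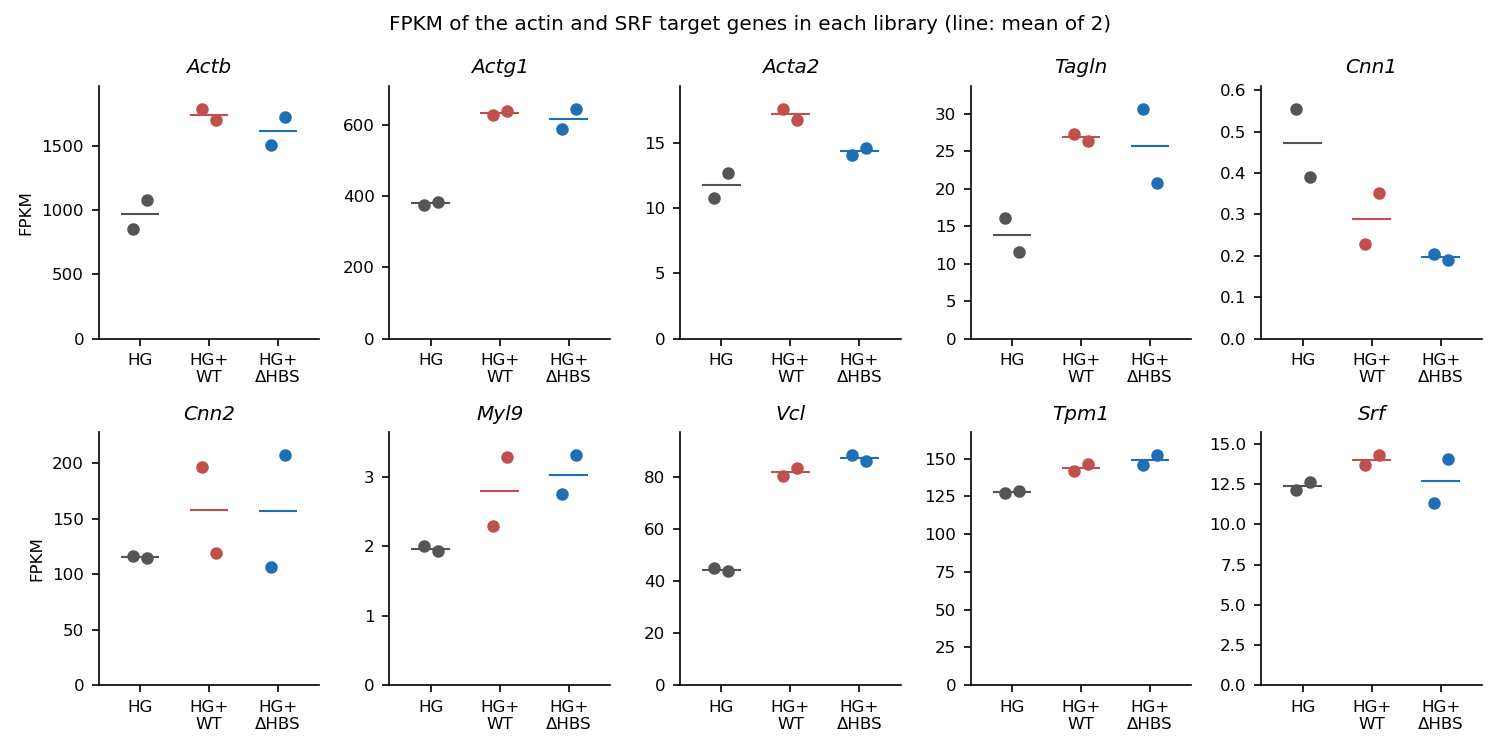
FPKM (vertical axes from 0, a separate scale for each gene) of the 10 genes in the 2 libraries of HG, HG + rFGF1WT and HG + rFGF1ΔHBS, with a line at the mean of each pair. *Actb*, *Actg1*, *Acta2*, *Tagln*, *Myl9*, *Vcl* and *Tpm1* have all 4 libraries with a growth factor above both HG libraries, and *Cnn1* has them all below.

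*Vcl* encodes vinculin, which ties actin filaments to integrin adhesions and cadherin junctions (chr14:20929398-21033676 of GRCm38, plus strand, 21 exons). It measured 45.0 and 43.9 FPKM in HG, 80.4 and 83.6 FPKM with rFGF1WT, and 88.4 and 86.2 FPKM with rFGF1ΔHBS. The 3 pairs of libraries were each tight and did not overlap, with rFGF1ΔHBS highest. *Vcl* rose with rFGF1WT by 0.87 (SE 0.046, adjusted p = 0.00661 by limma) and with rFGF1ΔHBS by 0.96 (SE 0.046, adjusted p = 0.00583), the smallest adjusted p-values among the 10 genes. The rFGF1ΔHBS call held under all 14 alternatives (adjusted p of 0.00525 to 0.0483), while the rFGF1WT call was lost with the replicate number as a block (adjusted p = 0.0521) and held under the other 13. The last part of *Vcl* overlaps *Ap3m1*, a gene on the opposite strand, over 2235 bases, and 25.1% of the 50-base words of *Vcl* transcripts were shared with it. *Ap3m1* itself measured 25.4 and 26.3 FPKM in HG, 32.7 and 33.2 FPKM with rFGF1WT, and 35.1 and 31.4 FPKM with rFGF1ΔHBS, and without strand the reads of the overlap cannot be told apart.

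*Tpm1* encodes a tropomyosin that lies along actin filaments (chr9:67022590-67049406 of GRCm38, minus strand, 10 exons). It was at 127 and 129 FPKM in HG, 142 and 146 FPKM with rFGF1WT, and 146 and 152 FPKM with rFGF1ΔHBS. Both HG libraries were below the other 4, but the differences were small, at 0.17 (SE 0.045, adjusted p = 0.113 by limma) and 0.22 (SE 0.045, adjusted p = 0.0716).

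*Tagln* encodes transgelin, an actin cross-linker of the calponin family (chr9:45929619-45936058 of GRCm38, minus strand, 5 exons). It measured 16.0 and 11.6 FPKM in HG, 27.4 and 26.4 FPKM with rFGF1WT, and 30.6 and 20.8 FPKM with rFGF1ΔHBS. The HG libraries were lowest, and the rFGF1ΔHBS pair spanned the rFGF1WT pair. Its log2 fold change with rFGF1WT, 0.93, was the largest of the 9 tested genes, but its spread was wide (SE 0.24, adjusted p = 0.111 by limma), and with rFGF1ΔHBS the change was 0.84 (SE 0.24, adjusted p = 0.128). An antisense gene model, *Gm48529*, overlaps *Tagln*, and 58.3% of the 50-base words of *Tagln* transcripts were shared with other gene models.

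*Cnn2* encodes calponin 2, an actin-binding protein of many cell types (chr10:79988584-79996062 of GRCm38, plus strand, 7 exons). It measured 116 and 114 FPKM in HG, 197 and 119 FPKM with rFGF1WT, and 107 and 207 FPKM with rFGF1ΔHBS. In each growth factor group 1 library was high and the other was close to HG, so the mean of neither group describes its libraries. The differences of 0.41 and 0.36 did not exceed their SE of 0.41 (adjusted p = 0.584 and 0.628 by limma). Without the second rFGF1ΔHBS library, the rFGF1ΔHBS difference was -0.11.

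*Cnn1* encodes calponin 1, a marker of differentiated smooth muscle (chr9:22099216-22109630 of GRCm38, plus strand, 7 exons). It was the lowest of the 10 genes, at 0.555 and 0.391 FPKM in HG, 0.227 and 0.351 FPKM with rFGF1WT, and 0.205 and 0.189 FPKM with rFGF1ΔHBS. It was the only one of the 10 with every growth factor library below both HG libraries. It was not tested, and with no filter on low values its log2 fold changes were -0.19 and -0.30 (adjusted p = 0.382 and 0.20 by limma).

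*Myl9* encodes the regulatory myosin light chain of smooth muscle and non-muscle cells (chr2:156775420-156781658 of GRCm38, plus strand, 4 exons). It measured 2.01 and 1.93 FPKM in HG, 2.30 and 3.29 FPKM with rFGF1WT, and 2.75 and 3.31 FPKM with rFGF1ΔHBS. The HG libraries were lowest, and the growth factor groups overlapped each other. The differences were 0.34 (SE 0.16, adjusted p = 0.282 by limma) and 0.44 (SE 0.16, adjusted p = 0.194), on a scale that understates changes of low genes because 1 is added to every FPKM.

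*Srf* (chr17:46548329-46556175 of GRCm38, minus strand, 7 exons) measured 12.2 and 12.6 FPKM in HG, 13.7 and 14.3 FPKM with rFGF1WT, and 11.4 and 14.0 FPKM with rFGF1ΔHBS. The rFGF1WT libraries were above HG, while the rFGF1ΔHBS libraries lay on both sides of it. The fitted differences were 0.16 (SE 0.11, adjusted p = 0.429 by limma) and 0.03 (SE 0.11, adjusted p = 0.917), so no change in the level of *Srf* RNA was detected with either protein.

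In the fit over all 10562 loci, 3 of the 9 tested genes, *Actb*, *Actg1* and *Vcl*, rose with rFGF1WT at an adjusted p under 0.05, beside 3.26% of all loci. With rFGF1ΔHBS, against the same 2 HG libraries, 2 of the 9, *Actg1* and *Vcl*, rose, beside 3.37% of all loci. None fell, beside 2.94% of all loci with rFGF1WT and 2.89% with rFGF1ΔHBS. No gene passed with a change of at least 2-fold, which 1.01% of loci did with rFGF1WT and 0.899% with rFGF1ΔHBS. An unadjusted p under 0.05 by limma was found for 6 of the 9 with rFGF1WT and 7 with rFGF1ΔHBS. Of the 10562 loci, 2616 and 2632 had one. Both rFGF1WT libraries were above both HG libraries for all 9 tested genes, as for 24.1% of all loci, and both rFGF1ΔHBS libraries were for 7 of the 9, as for 24.4% of all loci. The median log2 fold change of the 9 was 0.51 with rFGF1WT and 0.44 with rFGF1ΔHBS, against -0.04 over all tested loci in both comparisons. Since the genes were named with these comparisons known, nothing is read from these shares.

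**Figure D3:**
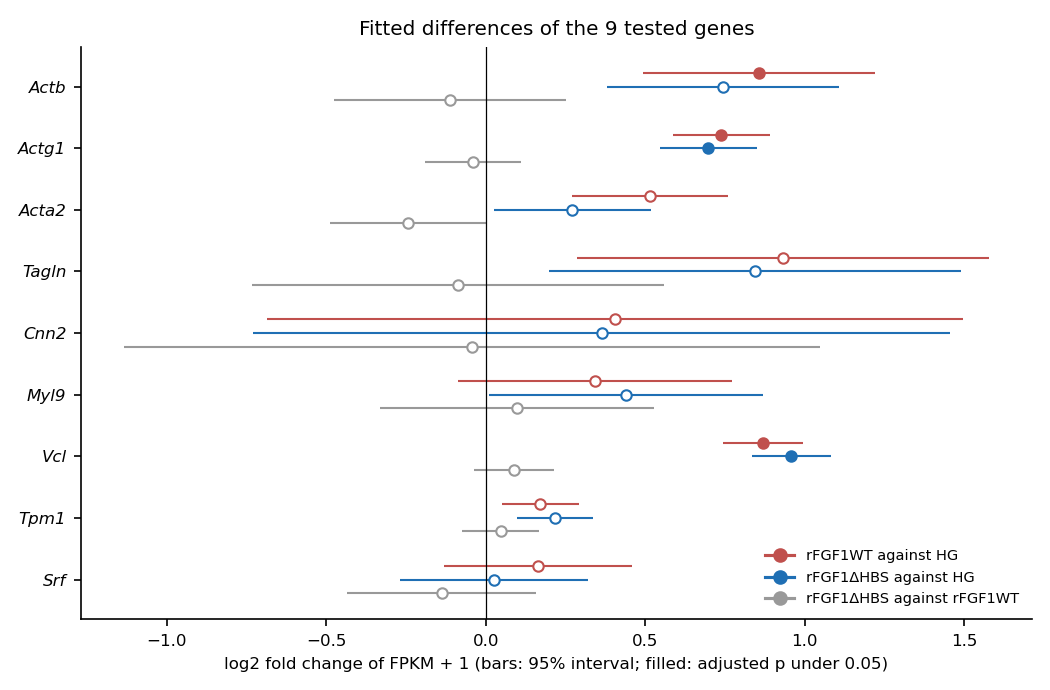
Fitted log2 fold change of FPKM + 1 of the 9 tested genes for rFGF1WT against HG, rFGF1ΔHBS against HG and rFGF1ΔHBS against rFGF1WT, with 95% intervals as bars and filled points where the adjusted p is under 0.05. The filled points are *Actb*, *Actg1* and *Vcl* with rFGF1WT and *Actg1* and *Vcl* with rFGF1ΔHBS.

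Weakened binding to heparan sulfate is the difference between the growth factors, and the libraries of rFGF1ΔHBS were compared directly with those of rFGF1WT at the same dose and time. None of the 9 tested genes differed at an adjusted p under 0.05 by limma, none had an unadjusted p under 0.05, and none passed with 2-fold. Over all loci 0.549% differed at the adjusted threshold, 0.35% did so with at least 2-fold, and 514 of 10562 had an unadjusted p under 0.05. The difference was -0.11 for *Actb*, with a 95% interval from -0.48 to 0.25, and -0.04 for *Actg1*, from -0.19 to 0.11. For *Vcl* it was 0.09, from -0.04 to 0.21, although both rFGF1ΔHBS libraries were above both rFGF1WT libraries. *Acta2* had the largest difference, -0.24, with an interval from -0.49 to 0.0016 and no overlap between the groups. For *Cnn2* the interval ran from -1.13 to 1.05, so a 2-fold difference in either direction is within it. With 2 libraries a group, these intervals do not show that the proteins act alike.

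**Figure D4:**
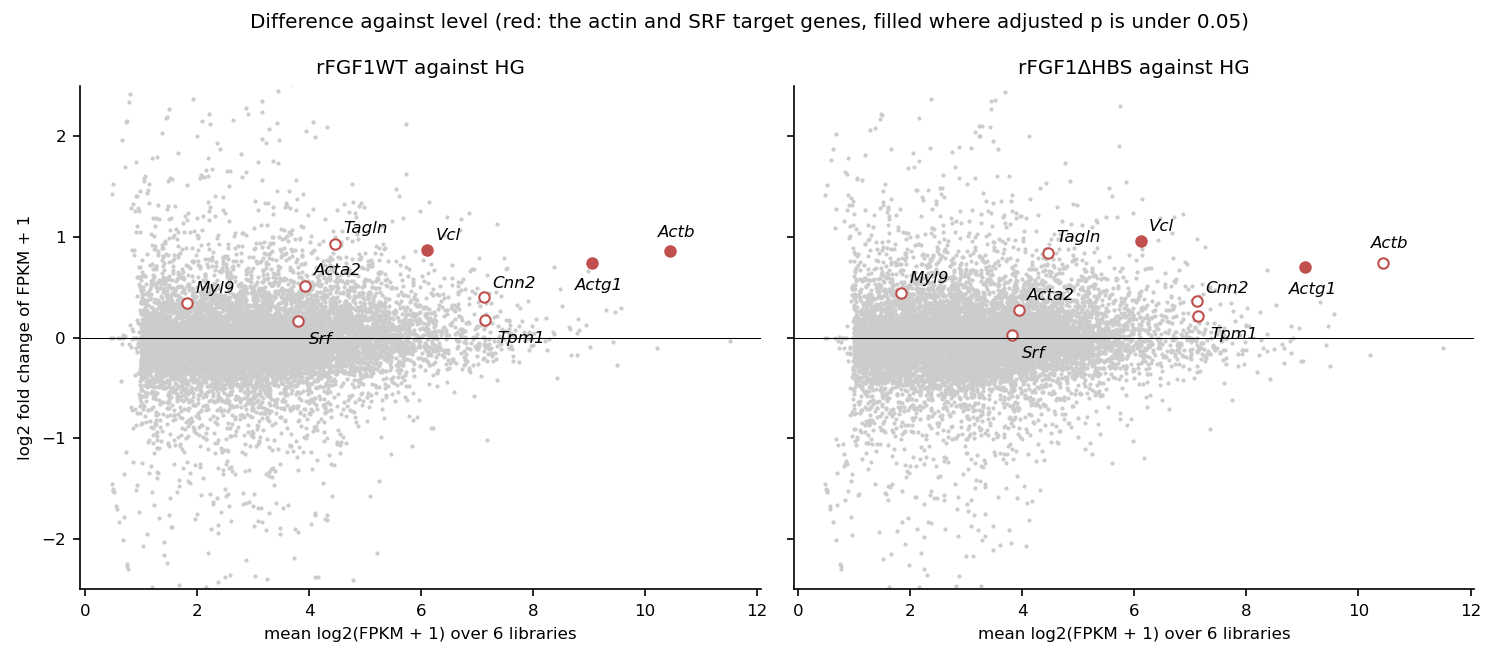
Log2 fold change of FPKM + 1 against the mean log2(FPKM + 1) of the 6 libraries for each tested locus (grey) and for the 9 tested genes (red, filled where the adjusted p is under 0.05), for rFGF1WT and rFGF1ΔHBS against the same 2 HG libraries. *Actb* and *Actg1* lie at the high end of the levels, and 57 loci with rFGF1WT and 60 with rFGF1ΔHBS lie outside the vertical axis.

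Housekeeping genes gave a measure of how far *Actb*, itself often used as a reference, departed from other abundant transcripts. None of 16 passed an adjusted p of 0.05 by limma in any comparison. An unadjusted p under 0.05 was found for 3 with rFGF1WT, 4 with rFGF1ΔHBS and 1 between the proteins. Of the 10562 tested loci, 2616, 2632 and 514 had one. *Eef1a1*, a translation elongation factor, measured between 2733 and 3136 FPKM. *Rplp0*, a ribosomal protein, measured 865 and 781 FPKM in HG, 694 and 666 FPKM with rFGF1WT, and 618 and 734 FPKM with rFGF1ΔHBS. The ratio of *Actb* to *Eef1a1* was 0.281 and 0.362 in HG, 0.570 and 0.613 with rFGF1WT, and 0.522 and 0.630 with rFGF1ΔHBS. The HG ratios were below the other 4, as was the case for the ratio to *Rplp0*. That ratio was 0.991 and 1.38 in HG and from 2.35 to 2.58 in the other libraries. *Rplp0* itself was lower in every growth factor library than in both HG libraries, so its ratio reflects differences in both genes.

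Other cytoskeletal genes that MRTF and SRF are known to regulate were counted from a list of 30, of which 26 were tested. With each protein 7 rose and none fell, and the list's median log2 fold change was 0.36 with rFGF1WT and 0.34 with rFGF1ΔHBS. Over all loci 3.26% and 3.37% rose, and the median was -0.04 in both comparisons. Both growth factor libraries were above both HG libraries for 19 and 20 of the 26, and below for 2 and 2. Among all loci 24.1% and 24.4% were above and 34.1% and 32.9% below. *Csrp2*, named after its values were seen, had the lowest differences (-0.56 and -0.46) and did not pass. It measured 11.0 and 12.1 FPKM in HG and between 6.78 and 8.36 FPKM in the other libraries. *Ccn1*, a secreted matrix protein that the file lists as Cyr61, measured 49.0 and 50.4 FPKM in HG, 110 and 120 FPKM with rFGF1WT, and 111 and 118 FPKM with rFGF1ΔHBS, and rose by 1.19 with both (SE 0.063, adjusted p = 0.00661 and 0.00764 by limma). *Fhl2*, a LIM-domain cofactor, rose by 0.59 and 0.58. CArG boxes were present in the promoters of 4 of the 25 genes of the list with an entry, *Fhl2*, *Fhl1*, *Lima1* and *Filip1l*. *Fhl1*, another LIM-domain protein, measured 27.9 and 29.9 FPKM in HG and between 23.7 and 25.2 FPKM in the other libraries and did not pass (-0.24 and -0.23, adjusted p = 0.108 and 0.113), *Lima1* did not pass, and *Filip1l* was too low to be tested. The last 3 were named after their values were seen. *Flna* and *Actn1*, which cross-link actin filaments, rose by 0.41 and 0.35 with rFGF1WT and by 0.47 and 0.38 with rFGF1ΔHBS. *Tpm4*, another tropomyosin, rose by 0.43 and 0.53, and *Thbs1*, the matrix protein thrombospondin, by 0.45 and 0.48. *Csrp1*, a LIM protein of the cytoskeleton, passed with rFGF1WT (0.23, adjusted p = 0.0482) and was at 0.14 with rFGF1ΔHBS (adjusted p = 0.109). *Ahnak*, a large scaffold protein, passed with rFGF1ΔHBS (0.43, adjusted p = 0.0358) and was at 0.30 with rFGF1WT (adjusted p = 0.0722). *Ccn2* (Ctgf in the file), a relative of *Ccn1* named here after its values were seen, had differences of 1.53 and 1.74 that did not pass (adjusted p = 0.126 and 0.098), with 8.68 and 15.9 FPKM in HG and between 30.3 and 57.3 FPKM in the other libraries.

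Genes of actin assembly and turnover numbered 31, all tested. With rFGF1WT 4 rose and with rFGF1ΔHBS 3 rose, none fell, and the medians were 0.12 and 0.10, beside the same shares and median over all loci. In each comparison 15 of the 31 had both growth factor libraries above both HG libraries and 8 had both below, where 24.1% and 34.1% of all loci did so with rFGF1WT and 24.4% and 32.9% with rFGF1ΔHBS. *Tmsb4x* encodes thymosin β4, which sequesters actin monomers, and measured 25.3 and 24.9 FPKM in HG, 57.6 and 56.6 FPKM with rFGF1WT, and 62.0 and 56.0 FPKM with rFGF1ΔHBS. It rose by 1.15 (adjusted p = 0.00727 by limma) and 1.20 (adjusted p = 0.00764). *Arpc1b* and *Arpc2*, subunits of the Arp2/3 complex that branches actin filaments, rose by 0.61 and 0.55 with rFGF1WT and by 0.60 and 0.51 with rFGF1ΔHBS. *Pfn1*, the profilin that loads monomers onto growing filaments, passed with rFGF1WT (0.79, adjusted p = 0.0433) and had a difference of 0.51 with rFGF1ΔHBS (adjusted p = 0.0951). *Cfl1*, the filament-severing cofilin and the highest gene of the list, measured 312 and 320 FPKM in HG and 372 to 416 FPKM in the other libraries, and did not pass (adjusted p = 0.0735 and 0.0662).

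SRF cofactors and genes of small GTPase signaling to actin numbered 18, of which 16 were tested. The same pair, *Elk3* and *Rhoc*, rose with each protein, and the medians were 0.13 and 0.06. *Elk3*, a TCF cofactor of SRF, rose by 0.48 and 0.47 (adjusted p = 0.0266 and 0.0283 by limma), and *Rhoc*, a small GTPase, by 0.46 and 0.39 (adjusted p = 0.0244 and 0.0345). *Rhoa*, the small GTPase best known for inducing stress fibers, measured between 50.3 and 55.1 FPKM in all libraries. *Mrtfa* (Mkl1 in the file), an MRTF cofactor, named here after its values were seen, measured between 14.5 and 16.2 FPKM, and myocardin, *Myocd*, was listed at 0 in 5 of the 6 libraries.

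Immediate early genes that TCF cofactors activate through SRF numbered 14, of which 10 were tested. None passed with rFGF1WT and 1 rose with rFGF1ΔHBS, beside 3.26% and 3.37% of all loci. An unadjusted p under 0.05 was found for 2 and 3, beside 2616 and 2632 of the 10562 loci. The medians were 0.14 and 0.35, against -0.04 over all loci. The gene that passed was *Ier3*, at 14.2 and 18.8 FPKM in HG, 28.4 and 27.4 FPKM with rFGF1WT, and 29.5 and 32.1 FPKM with rFGF1ΔHBS. Its differences were 0.74 (adjusted p = 0.0656 by limma) and 0.88 (adjusted p = 0.0473). *Fosl1* measured 2.23 and 2.63 FPKM in HG and between 4.23 and 5.56 FPKM in the other libraries. *Junb* measured 9.84 and 11.3 FPKM in HG, 17.0 and 0 FPKM with rFGF1WT, and 0 in both rFGF1ΔHBS libraries. Its rFGF1WT libraries thus did not resemble each other, and a second row of *Junb* did not exceed 0.0295 FPKM. *Ier2* measured 11.1 and 0 FPKM in HG, 0 in both rFGF1WT libraries, and 0 and 19.5 FPKM with rFGF1ΔHBS. *Btg2* measured 12.9 and 12.8 FPKM in HG, 15.9 in both rFGF1WT libraries, and 19.0 and 1.49 FPKM with rFGF1ΔHBS. The source of such gaps within a group was not tested, and the medians include these genes. *Fosl1*, *Junb*, *Ier2* and *Btg2* did not pass and were named after their values were seen. *Mcl1*, a survival gene, measured 16.1 FPKM in the first HG library and between 72.5 and 87.0 FPKM in the other 5, so its HG libraries did not resemble each other. *Klf6*, a zinc-finger factor, measured between 26.5 and 35.2 FPKM and did not pass. Between rFGF1ΔHBS and rFGF1WT, none of the 83 tested genes of these lists passed by limma, and none had an unadjusted p under 0.05. Of the 10562 loci, 0.549% passed and 514 had an unadjusted p under 0.05.

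**Figure D5:**
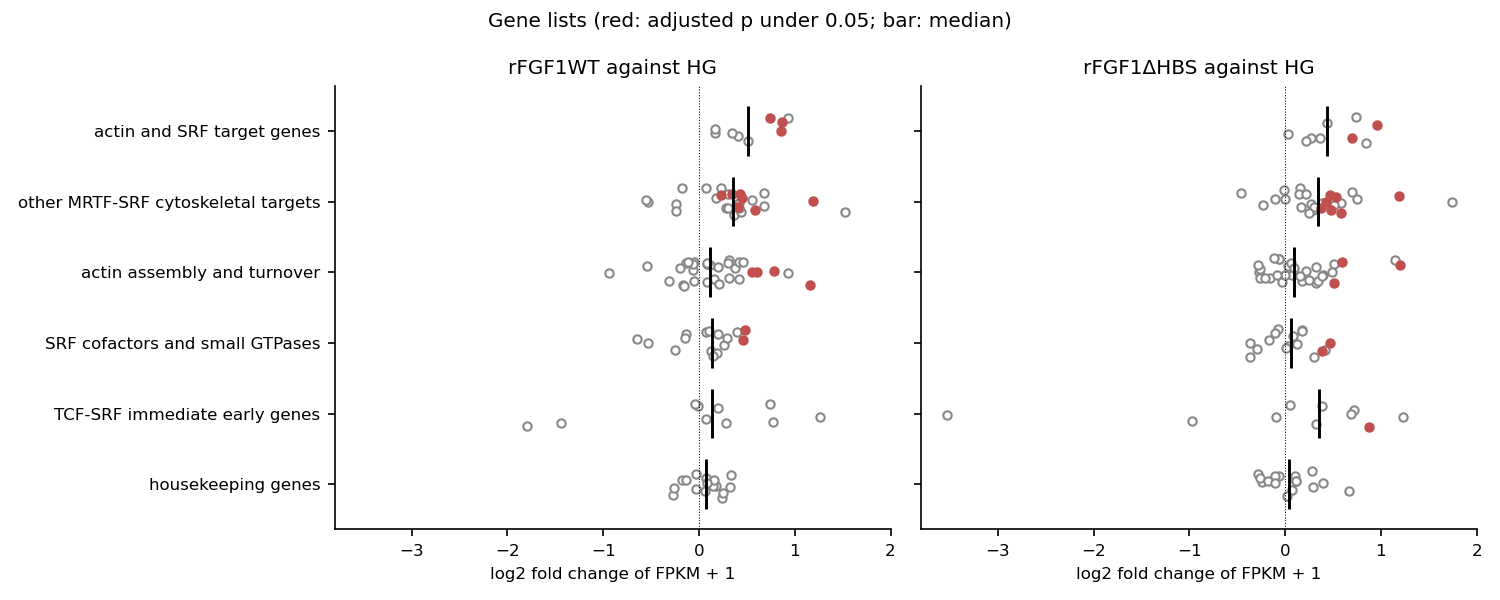
Log2 fold change of FPKM + 1 of each tested gene, by list, for rFGF1WT (left) and rFGF1ΔHBS (right) against HG, in red where the adjusted p is under 0.05, with a bar at the list's median. Medians are 0.51 and 0.44 for the actin and SRF target genes and 0.08 and 0.04 for housekeeping genes. The lists were set with earlier results of these data known, so nothing is read from the order of their medians.

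Markers of other cells that make smooth muscle actin were read beside these results. Of 10 smooth muscle and mesangial markers 3 had a mean of at least 1 FPKM, and *Myh11*, the myosin that defines smooth muscle, did not exceed 0.0326 FPKM. Their summed FPKM was 43.4 to 44.1 in HG, 33.2 to 35.2 with rFGF1WT and 33.8 to 35.1 with rFGF1ΔHBS. *Mcam*, an adhesion molecule, fell by 0.98 and 0.92 (adjusted p = 0.0142 and 0.0162 by limma), and *Pdgfrb*, the PDGF receptor, measured between 26.1 and 32.7 FPKM and did not pass. *Gata3*, the third tested marker of the list, lay the other way, at 2.30 and 2.17 FPKM in HG and between 2.73 and 3.10 FPKM in the other libraries, and did not pass (0.26 and 0.30, adjusted p = 0.158 and 0.118). Of the 10 fibroblast markers, 3 had a mean of at least 1 FPKM. Their list summed to 21.7 to 22.4 FPKM in HG, 19.1 to 19.5 with rFGF1WT and 17.7 to 19.8 with rFGF1ΔHBS. None of the 3 passed, and 2 with rFGF1WT and 0 with rFGF1ΔHBS had an unadjusted p under 0.05. Of the 10562 tested loci, 2616 and 2632 had one. In the fibroblast list *Fbln1* measured between 7.04 and 8.97 FPKM and *S100a4*, in a row shared with S100a3 and Gm42674, between 5.57 and 8.92 FPKM. Most of the smooth muscle and mesangial sum came from *Pdgfrb* and *Mcam*, and most of the fibroblast sum from *Fbln1* and *S100a4*. Any relation of these sums to *Acta2* and *Tagln* was not tested.

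In the podocyte list *Itga3*, the integrin that binds laminin, rose by 1.23 with both proteins (adjusted p = 0.00484 and 0.0051 by limma), from 65.1 and 64.2 FPKM in HG to between 146 and 160 FPKM. *Kirrel*, which encodes the slit diaphragm protein Neph1, passed with rFGF1WT (1.24, adjusted p = 0.0483) and had a difference of 0.88 with rFGF1ΔHBS (adjusted p = 0.0899). *Actn4*, an actin cross-linker of foot processes, measured between 83.2 and 106 FPKM and did not pass (adjusted p = 0.0701 and 0.0631). *Synpo*, which encodes synaptopodin, an actin-associated protein of foot processes, lay the other way, at 9.58 and 10.2 FPKM in HG, 5.45 and 4.01 FPKM with rFGF1WT, and 4.84 and 6.83 FPKM with rFGF1ΔHBS, and did not pass (-0.94 and -0.69, adjusted p = 0.0787 and 0.131). *Podxl*, which encodes the surface sialomucin podocalyxin, was also higher in HG, at 16.7 and 17.6 FPKM against 14.8 to 15.8 FPKM in the other libraries, and did not pass (adjusted p = 0.305 and 0.229). *Gata3*, *Synpo* and *Podxl* were named after their values were seen. The part of these marker differences in the results on actin and SRF targets was not tested.

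The deposited table attaches KEGG pathway labels to its rows, and the labels given here were picked after values were seen. *Actb*, *Actg1*, *Myl9* and *Vcl* shared the labels focal adhesion and regulation of actin cytoskeleton. Those of them that passed are included in the counts for these labels, so the counts are not separate from the results above. Of the 126 tested loci labelled focal adhesion, 17 rose and 5 fell with rFGF1WT, and 15 rose and 3 fell with rFGF1ΔHBS. Of the 137 labelled regulation of actin cytoskeleton, 15 rose and 4 fell with rFGF1WT, and 13 rose and 4 fell with rFGF1ΔHBS. *Acta2* and *Myl9* shared the label vascular smooth muscle contraction, with 57 tested loci, of which 2 rose and 2 fell with rFGF1WT and 2 rose and 1 fell with rFGF1ΔHBS. Over all loci 3.26% rose and 2.94% fell with rFGF1WT, and 3.37% rose and 2.89% fell with rFGF1ΔHBS.

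Over the 6 libraries, Pearson's r of log2(FPKM + 1) with *Actb* was 0.97 for *Actg1*, 0.93 for *Acta2* and *Vcl*, 0.91 for *Tpm1*, 0.75 for *Tagln* and *Myl9*, 0.57 for *Cnn2* and *Srf*, and -0.86 for *Cnn1*. Among the 4374 loci with a mean of at least 10 FPKM and no library at 0, 4 of the 5 loci most like *Actb*, the 10 genes left out, were *Memo1* (r = 0.995), *Eva1b* (0.995), *Atp13a1* (0.994) and *Rapgef3* (0.994). *Memo1* measured 12.7 and 13.7 FPKM in HG, 17.1 and 16.6 FPKM with rFGF1WT, and 15.8 and 16.4 FPKM with rFGF1ΔHBS; both HG libraries were lowest in *Memo1*, as in *Actb*. These values share libraries and describe likeness only.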

How the data were processed

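Poly(A) RNA of 6 libraries was sequenced from both ends, and the authors deposited 1 table of FPKM, summarized with edgeR per their methods. The submitters' processing notes name Bowtie 0.12.2, HISAT2 2.0, StringTie 1.3.0 and build mm8, without roles. Strand use is not given in the sources used here. Groups came from the labels. The 10 genes, the 9 other lists and the rule for named genes (every gene past the threshold and the 2 highest of each list) were set with earlier results of these data known. *Ccn2*, *Mrtfa*, *Myocd*, *Wt1* and *Myh11* were named after their values were seen, as were the other genes so marked in the results above.

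R 4.3.3 with limma 3.58.1 (lmFit, contrasts, eBayes with a trend) modelled log2(FPKM + 1) in all 6 libraries for the 10562 loci whose mean reached 1 FPKM, leaving 3 residual degrees of freedom, with Benjamini-Hochberg adjustment over all loci. The fit was tested on simulated data. Positions and shared 50-base words came from GENCODE (GRCm38), coding identity from Biopython 1.88 alignments, and promoters from RefSeq. Depth is unknown, so no counting interval is given. Figures used Python 3.11.15. Alternatives were another pseudocount, other filters, quantile normalization, median-ratio scaling, fits of 4 libraries, a replicate block, summed loci and leaving out each library. Results on some genes are not reported here.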

Additional observations from a re-analysis of the deposited data

How the results depend on the processing

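The 10 genes had 1 locus each, so summing loci changed nothing. With 2 libraries a group, calls depended on single libraries and on the number of loci adjusted for. As reported, 3 of the actin and SRF target genes passed with rFGF1WT and 2 with rFGF1ΔHBS, and 13 genes of the 5 other actin and SRF lists passed in each comparison. With no filter on low FPKM, which tests 24469 loci, 1 and 1 of the former and 8 and 8 of the latter passed. With only the 4 libraries compared, at least *Actg1* and *Vcl* of the former passed with rFGF1WT and 1 passed with rFGF1ΔHBS. Of the latter, 3 and 4 passed under that setting. Leaving out each library, where the lone library of a group is assumed to vary like the others, gave 1 to 2 of the former with either protein and 2 to 5 (rFGF1WT) and 2 to 6 (rFGF1ΔHBS) of the latter, and between the proteins 0 of the former and 0 to 3 of the latter. With the replicate number as a block, 0 and 1 of the former and 2 and 2 of the latter passed. Same-numbered libraries did not deviate together (r of -0.02, 0.10 and -0.05 between pairs of groups), so the numbers are not taken to pair the libraries. The cause of these changes was not tested beyond the number of loci and libraries.

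The median log2 fold change of the 9 tested genes was 0.59 with rFGF1ΔHBS at a pseudocount of 0.1. Leaving out each library, it ran from 0.42 to 0.73 with rFGF1WT and from 0.34 to 0.57 with rFGF1ΔHBS. None of *Actb*, *Actg1* and *Vcl*, the tested actin and SRF target genes that passed, changed its direction against HG under any of the 14 alternatives. Differences between the proteins turned under quantile normalization for *Actb* (0.22), *Actg1* (0.14) and *Cnn2* (0.011). Leaving out each library, they ran from -0.52 to 0.43 for *Cnn2*, -0.092 to 0.29 for *Myl9*, -0.11 to 0.024 for *Actg1*, -0.28 to 0.0042 for *Srf* and -0.36 to 0.18 for *Tagln*, and the rFGF1ΔHBS difference from HG ran from -0.11 to 0.84 for *Cnn2* and -0.12 to 0.17 for *Srf*.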
